A study of Mus musculus with 4 samples.

Results

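Lung CD8 T cells were described in single-cell RNA-sequencing data from TNF- and TNF+ mice. A lung barcode was taken as a CD8 T cell when it held at least 2 unique molecular identifiers (UMIs, each counting 1 captured transcript) of Cd3e, Cd3d and Cd3g together and at least 2 of Cd8a and Cd8b1 together. It also had to hold 0 UMIs of each of Cd4, Foxp3, Trdc, Cd79a and Csf1r, at least 500 UMIs in all and at most 20% mitochondrial UMIs. This rule found 304 cells among 8342 kept barcodes of the TNF- lung and 213 among 11085 of the TNF+ lung, so 517 of 19427 kept lung barcodes and of 30943 barcodes in the whole series. The cells were thus chosen by their measured counts of these genes, and the values of those genes are given as a description only.

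The TNF+ mice were of the TNF-transgenic (TNF-Tg) line, which overexpresses the human TNF gene and develops inflammatory arthritis and lung disease, and the TNF- mice were their wildtype littermates without the transgene. Both groups were female, on a C57BL/6 background and 4 months old. Lung tissue of 3 to 5 mice per genotype was pooled before dissociation and live-cell sorting without a lineage gate, and each pool became 1 library on the 10x Genomics platform. The promoter of the transgene was not given in the sources used here. With 1 library per genotype no test between genotypes was possible, and genotype and library cannot be told apart. All intervals are 95% intervals for counting error only. They treat UMIs or cells as independent, although UMIs of a gene can gather in few cells, and they hold no spread between mice.

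CD8 T cells recognize peptides on MHC class I molecules and kill infected or altered cells through granzymes and perforin. Naive CD8 T cells express Lef1, Tcf7 and Ccr7 and circulate through lymphoid organs. After activation they gain cytotoxic genes, the chemokine Ccl5 and receptors for entry into inflamed tissue, and some stay in the lung as resident memory cells that carry Cd69, Cxcr6 and Itga1, whereas others circulate through blood with Klrg1, Cx3cr1, Zeb2 and S1pr5.

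The label was checked against markers and nearby lymphocytes. By the choice of the cells, the co-receptor chain Cd8b1 stood at 772 CPM (UMIs of a gene per 1000000 UMIs of the cells) in TNF- members and 717 CPM in TNF+ members, and Cd3e, a chain of the T cell receptor complex, at 378 and 407 CPM. Cd8b1 had 0 and 3 UMIs in all in the lung NK cells of the libraries (no CD3 UMI and at least 2 UMIs of Ncr1 and Klrb1c). Among genes outside the rule, those highest in members relative to CD4 T cells of the same lungs included Ly6c2, Gzmb, Klre1, Klrc1, Ccl4 and Xcl1, genes of effector CD8 and NK cells. Relative to NK cells the highest included Themis, Cd5, Cd6, Ccr7 and Dapl1, genes of T cell development, T cell receptor tuning and the naive state. Themis, for example, stood at 939 and 847 CPM in members and at 1.01 and 7.14 CPM in NK cells. The genes that stood out outside the rule were thus those of cytotoxic cells against CD4 T cells and of T cells against NK cells.

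Some measured facts of the libraries touch the values below. The median depth of a member was 10665.5 UMIs (TNF-) and 12044 UMIs (TNF+), and all members together held 3535403 and 2826790 UMIs. Free myeloid RNA was more plentiful in the TNF+ library. Lyz2, a myeloid lysozyme, was found after thinning in 20.4% of TNF- and 68.5% of TNF+ members and in 19.7% and 78.3% of B cells. Not all foreign transcripts had this direction, since the airway gene Scgb1a1 was found in 94.1% and 79.8% of members. In lung B cells (at least 2 Cd79a UMIs and no CD3 UMI), which serve as a comparison for free RNA below, the myeloid gene Fcer1g averaged 0.592 and 4.30 UMIs per cell. Unlike members, these B cells could hold Csf1r UMIs, so the 2 groups were not chosen alike. B cells can also express a gene themselves, and for such a gene their share does not measure free RNA. A few members carried many UMIs of stromal or epithelial genes. The 10 members with most epithelial UMIs held 76.1% of the epithelial marker UMIs in TNF- members and 82.0% in TNF+ members, and a summed fold change can rest on such cells. The 2 lung libraries shared 19 kept barcodes and no member barcode.

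At the edge of the rule, 14 TNF- and 9 TNF+ members held exactly 2 CD8 UMIs, and 17 and 19 barcodes that met every other condition held 1. The Csf1r condition alone left out 11 TNF- and 67 TNF+ barcodes, whereas the Cd79a condition alone left out 41 and 25. The exclusion of barcodes with a Csf1r UMI, a macrophage gene, thus weighed more on the TNF+ lung.

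CD8 T cells made up 3.64% (3.25 to 4.07) of kept barcodes in the TNF- lung and 1.92% (1.67 to 2.20) in the TNF+ lung. The share was lower by 1.72 percentage points (difference of -1.72, interval -2.21 to -1.25). Conventional CD4 T cells, found by the same conditions with at least 1 Cd4 UMI and no Cd8a or Cd8b1 UMI, took a similar share in both. They numbered 272 (3.26%) and 385 (3.47%), a difference of 0.213 points with an interval of -0.305 to 0.720. By other denominators, CD8 T cells were 29.1% of the 1045 TNF- barcodes and 13.5% of the 1583 TNF+ barcodes with at least 2 CD3 UMIs. They made up 52.8% (48.6 to 56.9) of the 576 CD8 and CD4 T cells of the TNF- lung and 35.6% (31.8 to 39.6) of the 598 of the TNF+ lung, a difference of -17.2 points (-22.7 to -11.5). NK cells, the other cytotoxic lymphocytes, had the same direction, with 187 (2.24%) in the TNF- lung and 104 (0.938%) in the TNF+ lung. When the Csf1r condition was lifted, the difference in the CD8 share of kept barcodes was -1.25 points, and when the rule was applied after thinning to 2000 UMIs it was -0.812 points (2.42% and 1.61%). By the same rule the synovial libraries held 15 CD8 T cells among 6638 kept barcodes (TNF-) and 8 among 3498 (TNF+), too few to describe further.

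**Figure D1:**
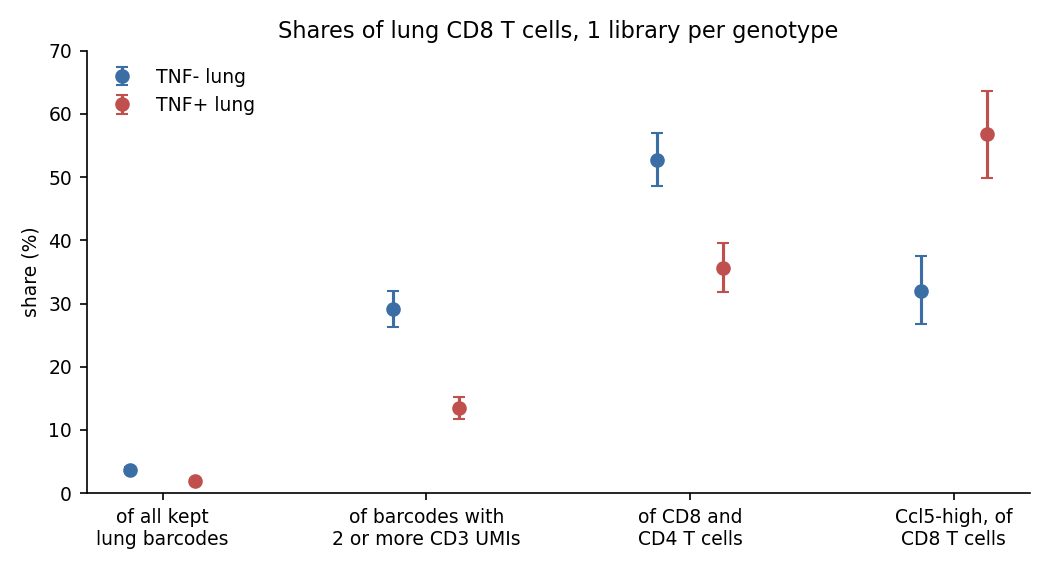
Share in percent (y axis) of lung CD8 T cells among kept barcodes, among barcodes with 2 or more CD3 UMIs and among CD8 and CD4 T cells, and of Ccl5-high cells (5 or more Ccl5 UMIs) among CD8 T cells, for the TNF- (blue) and TNF+ (red) libraries, with exact binomial 95% intervals as error bars. The CD8 shares lay lower in the TNF+ lung (1.92% against 3.64% of kept barcodes, 35.6% against 52.8% of CD8 and CD4 T cells) and the Ccl5-high share higher (56.8% against 31.9%).

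The members were split by Ccl5, a chemokine that antigen-experienced CD8 T cells store as transcript. In both libraries nearly every member held either 0 to 2 Ccl5 UMIs (Ccl5-low) or 5 and more (Ccl5-high), and only 5 TNF- and 3 TNF+ members held 3 or 4. That band is narrow, and the lowest Ccl5-high member held 6 UMIs in the TNF- and 5 in the TNF+ lung, so no wide gap parted the ranges. Median Ccl5 in the Ccl5-high range was 117 UMIs in TNF- members and 54 in TNF+ members, while the median in the Ccl5-low range was 0 in both. Ccl5-high cells made up 97 of 304 TNF- members (31.9%, 26.7 to 37.5) and 121 of 213 TNF+ members (56.8%, 49.9 to 63.6). The difference was 24.9 points (16.3 to 33.1). Only 0.227% and 0.135% of lung B cells held 5 or more Ccl5 UMIs, so free Ccl5 RNA was at a low level in both libraries, and among CD4 T cells the shares were 6.62% and 12.5%. After each member was thinned to 2000 UMIs, the Ccl5-high share was 27.0% and 37.1%, a difference of 10.1 points (1.99 to 18.3). At that depth 33.6% of TNF- and 57.8% of TNF+ members held any Ccl5 UMI, against 1.60% and 4.07% of B cells.

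Lef1, a transcription factor of naive T cells, followed the opposite pattern. Its median was 18.5 UMIs in TNF- and 16 UMIs in TNF+ members of the Ccl5-low range, and 2 and 3 UMIs in the Ccl5-high range. A Lef1 UMI was found in 202 of 202 and 85 of 89 Ccl5-low members. It was also found in 76 of 97 and 89 of 121 Ccl5-high members, so the ranges differed in Lef1 level more than in its presence. The plot of Ccl5 against Lef1 shows these ranges cell by cell.

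**Figure D2:**
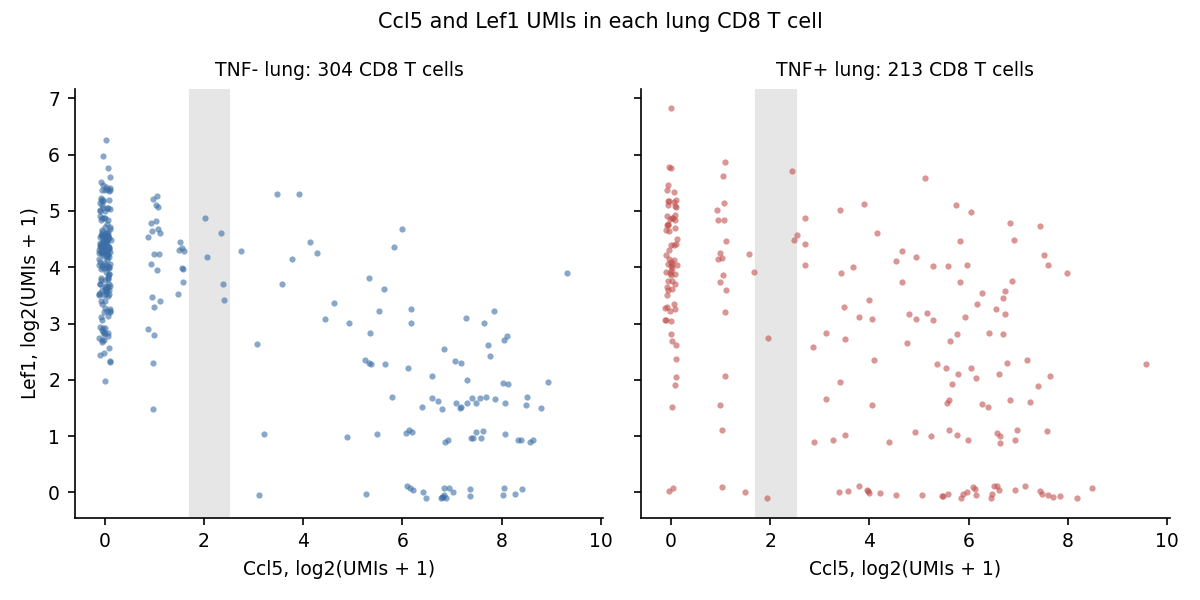
Ccl5 (x axis) against Lef1 (y axis), both as log2(UMIs + 1), for each member (1 point, spread slightly to show overlaps), 304 in the TNF- lung and 213 in the TNF+ lung; the grey band marks 3 and 4 Ccl5 UMIs. Cells with 5 or more Ccl5 UMIs, 31.9% of TNF- and 56.8% of TNF+ members, mostly sit low on the Lef1 axis, and only 5 and 3 cells lie in the grey band.

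The ranges differed in the genes of naive and effector T cells in both libraries. These differences describe the split and were not tested, because the ranges were cut from the same cells. Gzma, which encodes granzyme A, stood at 4.76 CPM in Ccl5-low and 2552 CPM in Ccl5-high TNF- members, and at 0.908 and 414 CPM in TNF+ members. Gzmb, Gzmk, Klre1, Klrc1, Klrc2, Ccl4, Fasl, Ifng and Klrg1 were likewise higher in the Ccl5-high range of both libraries. Igfbp4, Auts2, Sox4 and Ccr7, genes of naive and recent thymic T cells, were higher in the Ccl5-low range. Ccr7, the receptor that guides T cells into lymph nodes, stood at 272 CPM in Ccl5-low and 49.96 CPM in Ccl5-high TNF- members, and at 282 and 74.8 CPM in TNF+ members.

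Summed over all members, 9085 genes held at least 50 UMIs in both libraries together. Of these, 120 (1.32%) were at least 2-fold higher in TNF+ than in TNF- members and 483 (5.32%) at least 2-fold lower, with a median log2 ratio of -0.06. The lower genes rested in large part on few cells. With the 10 members of each library that held most stromal and epithelial UMIs left out, a choice made after seeing the data, 262 genes were at least 2-fold lower. In the endothelial marker list 9 of 10 genes were past 2-fold lower (median log2 ratio -4.95), and in the mesenchymal list 4 of 4 (median -4.05). Acta2, a smooth muscle actin, had 196 of its 211 TNF- UMIs in 1 member. The named genes below were chosen with a condition meant to limit free RNA. Their level in members had to be at least 0.5 times that of all kept barcodes in the library where they were higher. This condition does not keep out genes whose UMIs lie in few cells.

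Of the 15 highest genes named by this rule the first was Xcl1, which encodes lymphotactin, the chemokine with which CD8 T cells and NK cells attract cross-presenting dendritic cells. Xcl1 (chr1:164931644-164935527, GRCm38) stood at 10.5 CPM in TNF- members and 70.04 CPM in TNF+ members, a log2 ratio of 2.74 (2.23 to 3.29). It was found in 10 of the 304 and in 66 of the 213 members, and after thinning in 0.987% and 12.7%, against 0 of 1312 TNF- B cells, where the share could be as high as 0.229%, and 0.069% of TNF+ B cells. The ratio was positive in both Ccl5 ranges (1.74 in the high range, and in the low range 5.46, with an interval of 2.83 to 10.8, from 1 TNF- and 21 TNF+ UMIs). CD4 T cells had a like ratio of 2.91 from 2 and 20 UMIs, and NK cells stood at 91.5 CPM in the TNF- lung and 563 CPM in the TNF+ lung.

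Rgs1, a regulator of chemokine receptor signalling that marks resident and recently activated T cells, stood at 19.0 CPM in TNF- members and 67.6 CPM in TNF+ members (log2 ratio 1.83, 1.42 to 2.26), in 38 and 75 members. Serpina3g, a protease inhibitor induced in activated CD8 T cells, stood at 10.7 and 42.1 CPM (1.97), in 24 and 62 members. Its family holds close paralogs, among which reads could be split. Both genes were thus spread over more TNF+ cells. CD4 T cells had the same direction, with log2 ratios of 1.82 for Rgs1 and 1.7 for Serpina3g. Jaml, an adhesion molecule that gives T cells a costimulatory signal in epithelia, stood at 33.1 and 93.7 CPM (1.502). Ifngas1, a long noncoding RNA beside Ifng, stood at 26.0 and 72.9 CPM (1.49), while Ifng itself stood at 32.0 and 34.3 CPM (0.10). Whether the counting used strand at this locus was not given in the sources used here.

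Mouse Tnf (chr17:35199381-35202007) stood at 33.7 CPM in TNF- members and 96.2 CPM in TNF+ members, a log2 ratio of 1.52 (1.20 to 1.84). The transgene is human TNF, which is not among the listed genes, and whether its transcripts were counted at the mouse gene was not tested. After thinning, Tnf was found in 5.26% and 20.2% of members, but also in 2.97% and 11.2% of B cells, so B cells had the same direction. Bcl3, a nuclear partner of NF-kB p50 and p52, stood at 9.90 and 27.9 CPM (1.497). Map3k8, a kinase upstream of ERK after TNF receptor signals, stood at 10.7 and 32.9 CPM (1.61). The noncoding RNA AY036118 stood at 149 and 434 CPM (1.54) in members and at 294 and 523 CPM in all kept barcodes.

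The other genes named by the rule were Klra7, Chn2, Myo3b, Samd3, Clu and Jazf1, with log2 ratios of 1.38 to 2.03. Klra7 encodes an inhibitory Ly49 receptor for MHC class I, and close paralogs in its family could split reads. It stood at 7.35 and 30.1 CPM, but 11 TNF+ members held all its UMIs and the top 5 of them 81.2%. For Clu, 1 TNF+ member held 72 of 80 UMIs, and without members of over 5000 detected genes its ratio was -0.14. Samd3 was spread over 58 TNF- and 92 TNF+ members.

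Among the 15 lowest genes by the rule, Gzma (chr13:113093825-113100981) had the highest count. It stood at 841 CPM in TNF- members and 247 CPM in TNF+ members, a log2 ratio of -1.77 (-1.89 to -1.65). A Gzma UMI was found in 62 of 304 and 19 of 213 members, and after thinning in 16.1% and 5.63%, against 1.37% and 1.17% of B cells. The top 5 members held 40.5% of the TNF- and 83.6% of the TNF+ UMIs. The level in NK cells was 6334 CPM in the TNF- lung and 6810 CPM in the TNF+ lung. In CD4 T cells Gzma had the opposite direction, with 4.90 and 22.4 CPM (log2 ratio 2.19), and the CD8 ratio minus the CD4 ratio had a counting interval of -4.78 to -3.13. B cells stood at 20.9 CPM in the TNF- lung and 17.2 CPM in the TNF+ lung, so the TNF+ CD4 level was near theirs. The part of free RNA in the CD4 level was not tested.

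Zg16, a secreted lectin gene, had the lowest ratio of them. It stood at 35.6 CPM in TNF- members and 2.48 CPM in TNF+ members (log2 ratio -3.85, -5.19 to -2.76), in 80 and 6 cells. Tex14 (chr11:87405065-87555823), a gene best known for intercellular bridges of germ cells, stood at 146 and 41.0 CPM (-1.83), in 214 and 83 cells. Both were lower in CD4 T cells too (-2.21 and -1.87) and in all kept barcodes, at 8.82 and 1.24 CPM for Zg16 and 81.6 and 29.7 CPM for Tex14. Ms4a4d had the same pattern, with log2 ratios of -2.73 in members and -2.98 in CD4 T cells. For these genes CD8 and CD4 T cells had the same direction.

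S1pr5, the sphingosine 1-phosphate receptor with which effector cells leave tissue, stood at 28.6 and 7.78 CPM (-1.88, -2.61 to -1.20). With the Csf1r condition lifted its ratio was -0.80, after subtraction of free RNA it was -3.59, and S1pr5 was higher in the TNF+ library as a whole, at 11.2 CPM over all kept TNF- barcodes and 42.7 CPM over all kept TNF+ barcodes. Rap1gap2, a regulator of the Rap1 GTPase, had a ratio of -1.67, which was -0.36 with the Csf1r condition lifted. The lower genes also held Sh3d21, Gria3, Prrg2, Gk5, Erp27, Plekho1, As3mt, Milr1 and Slc10a1, with log2 ratios of -2.57 to -1.61. In CD4 T cells Sh3d21 (-2.66), Gria3 (-4.18), Prrg2 (-1.91), Gk5 (-2.04), Erp27 (-1.38), Milr1 (-1.997) and Slc10a1 (-3.2) were lower too. For Plekho1 (-0.12) and As3mt (-0.54) the CD4 interval held 0.

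**Figure D3:**
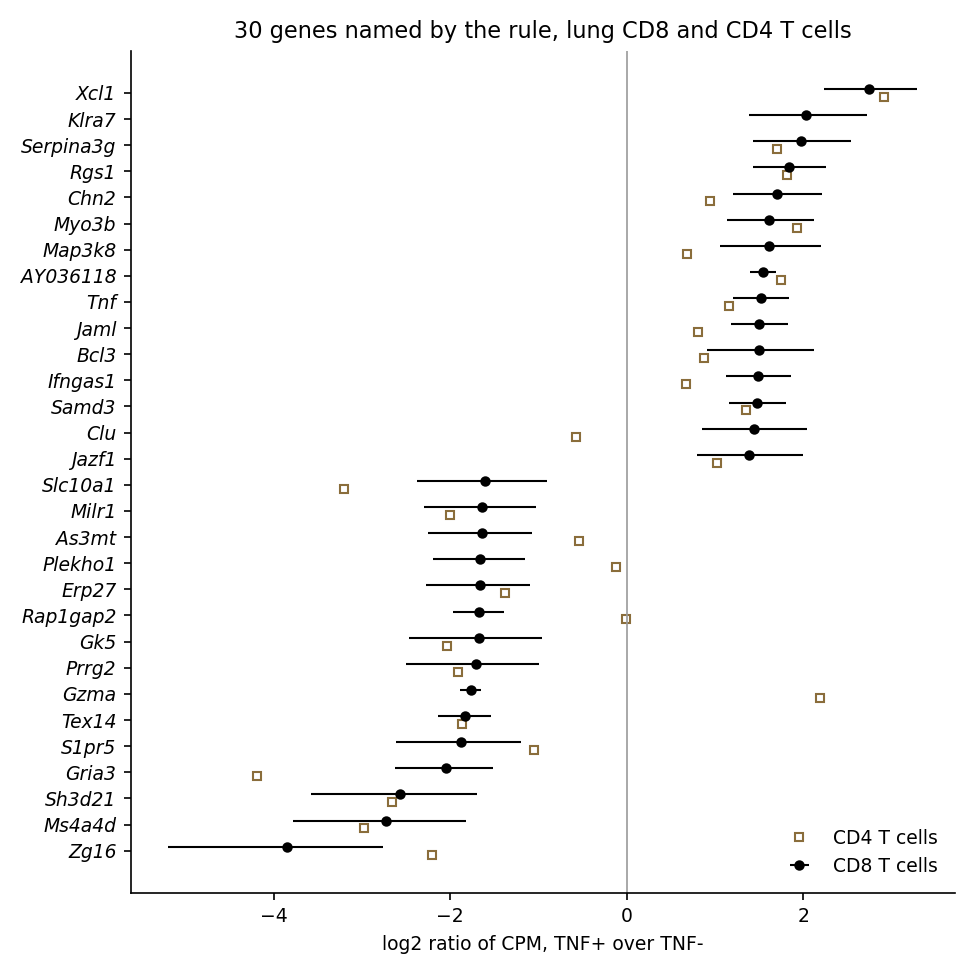
Log2 ratio of CPM in TNF+ over TNF- lung (x axis) for the 15 highest and 15 lowest genes by the naming rule, in CD8 T cells (filled points, lines are counting 95% intervals) and in CD4 T cells of the same lungs (open squares, absent where CD4 T cells held no UMI). Xcl1 was highest at 2.74 and Zg16 lowest at -3.85, and for Gzma the CD8 ratio of -1.77 stood opposite the CD4 ratio of 2.19.

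Gene lists were then described by how many measured members were past 2-fold, beside the 1.32% of all genes that were higher and the 5.32% that were lower, and by the median ratio beside the -0.06 of all genes. Over all 9085 genes 10.96% had intervals above 0 and 18.98% below. These intervals narrow as the UMIs of a gene rise, so lists of genes with many UMIs can pass more often than all genes. The naive and recirculation list was lower. Of its 15 genes 0 were past 2-fold higher and 2 lower, 13 had intervals below 0, and the median log2 ratio was -0.38. Lef1 stood at 1251 CPM in TNF- members and 951 CPM in TNF+ members (-0.40), Klf2 at 982 and 648 CPM (-0.60), Bach2 at 944 and 735 CPM (-0.36), and Foxp1 at 1760 and 1380 CPM (-0.35). Igfbp4 (-1.29) and Ccr9, a gut-homing receptor (-1.27), were past 2-fold. Within Ccl5-low members alone the median was -0.12, and within Ccl5-high members it was 0.27. In CD4 T cells the median of this list was -0.95. After thinning, Klf2 was found in 82.6% and 57.3% of members, and in B cells in 83.8% and 57.2%.

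The cytotoxic list had a higher median but a lower sum over all members. Of 16 genes 2 were past 2-fold higher (Xcl1 and Tnf) and 1 lower (Gzma), 9 had intervals above 0 and 3 below, and the median was 0.35. Nkg7, a granule membrane gene, stood at 672 and 836 CPM (0.32), and Srgn, the granule proteoglycan, at 501 and 629 CPM (0.33). Ccl5 stood at 4029 and 3293 CPM (-0.29), lower in sum although more TNF+ members held it. Gzmb, granzyme B, stood at 84.0 and 57.3 CPM (-0.55). Summed over the list the level was 6606 CPM in TNF- members and 5833 CPM in TNF+ members (log2 ratio -0.18, -0.21 to -0.15). Within the Ccl5-high range the cytotoxic median was -0.33, and in CD4 T cells it was 1.05. The NK receptor list held 9 measured genes, 2 past 2-fold higher (Klra7 and Fcer1g) and 0 lower, with a median of -0.13 over all members and -0.90 within the Ccl5-high range. Fcer1g, a signalling chain plentiful in myeloid cells, had a ratio of 2.76, which was 0.41 after subtraction of free RNA.

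Receptors and genes of tissue residency were higher over all members. Of 8 measured genes 2 were past 2-fold higher, Rgs1 and P2rx7, the extracellular ATP receptor (1.62), and 6 had intervals above 0. Cd69, which holds T cells in tissue, stood at 172 and 286 CPM (0.74), Cxcr6, a receptor of lung-resident cells, at 76.9 and 144 CPM (0.90), and Runx3 at 264 and 301 CPM (0.19). Itgae, whose integrin binds epithelial E-cadherin, stood at 88.8 and 62.3 CPM (-0.51). An Itgae UMI was found in 52.0% of TNF- and 47.2% of TNF+ Ccl5-low members (20.8% and 12.4% thinned). In Ccl5-high members the shares were 16.5% and 14.9% (5.16% and 5.79% thinned), so the sum over all members also follows the mix of the ranges. The median of the residency list was 0.52, within the Ccl5-high range 0.84, and within the Ccl5-low range -0.12. In CD4 T cells it was 0.50, close to that of CD8 T cells. In the effector memory list 1 of 24 genes was past 2-fold higher (Cxcr3, 40.5 and 94.8 CPM, 1.23) and 1 lower (Zeb2, 326 and 140 CPM, -1.21), with a median of 0.11. Cxcr3, the receptor for interferon-induced chemokines, was found after thinning in 7.24% and 17.8% of members and in under 1% of B cells. The Zeb2 ratio was -0.39 with the Csf1r condition lifted and -7.98 after subtraction of free RNA. The latter is a bound and not a measured ratio, because the subtraction left the TNF+ sum at about the floor of 3 UMIs. Before subtraction, Ccl5-high members held 377 of the 397 TNF+ Zeb2 UMIs.

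The TNF receptor and NF-kB list held 20 measured genes. Bcl3 was past 2-fold higher and none was past 2-fold lower, 11 had intervals above 0 and 2 below, and the median was 0.25 (0.34 in Ccl5-low members, 0.45 in Ccl5-high members and 0.39 in CD4 T cells). Nfkbia, the inhibitor that NF-kB induces against itself, stood at 252 CPM in TNF- members and 371 CPM in TNF+ members (0.56). Ltb, a lymphotoxin subunit of the TNF family, stood at 419 and 638 CPM (0.61), Nfkb1 at 189 and 224 CPM (0.25) and Tnfaip3, a feedback inhibitor, at 166 and 188 CPM (0.18). Singled out after their values were seen, Tnfrsf1b, which encodes TNF receptor 2, stood at 31.1 and 60.9 CPM (0.97), and Tnfrsf1a, which encodes TNF receptor 1, at 22.4 and 12.4 CPM (-0.85). After thinning Tnfrsf1b was found in 5.59% and 13.2% of members and in 3.35% and 8.35% of B cells. For Tnfrsf1a, 1 TNF- member held 30 of the 79 UMIs, and a UMI was found in 13.2% of TNF- and 15.02% of TNF+ members, so the ratio of -0.85 rested on that cell.

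The promoters of this list were searched for the NF-kB motif GGGANNTTCC on both strands, from 250 bases before to 50 after the RefSeq start (GRCm38.p6). The motif was in 482 of 32851 promoters (1.47%) and in those of 3 of the 17 list genes found in the table, among them Nfkbia and Ltb. Their sites are shown because these genes had the highest counts of the list members with intervals above 0, with the motif in capitals. On the strand printed the motif reads as its reverse complement. With other letters, GGGANNNTCC was in 4.59% of promoters and 3 of the 17, GGGNNNTTCC in 5.56% and 9, and GGGANNNNCC in 20.7% and 11. A match describes the sequence and was not tested as a binding site.
Nfkbia (chr12:55492657-55492686, minus strand, motif beginning 29 bases before the start): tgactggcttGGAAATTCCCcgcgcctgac
Ltb (chr17:35194410-35194439, plus strand, motif beginning 87 bases before the start): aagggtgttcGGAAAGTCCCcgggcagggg

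Other lists of T cell function had medians near that of all genes, though some had several intervals apart from 0. The interferon response list had 0 of 21 genes past 2-fold higher and 1 lower (Iigp1, -1.34), with a median of -0.06. It had 1 interval above 0 and 7 below, the latter with Irf1 at 242 and 172 CPM (-0.49). The MHC class I list had 0 of 12 past 2-fold (median 0.08, 5 intervals above 0 and 0 below), with H2-K1 at 0.13. The T cell receptor signalling list holds the CD3 and CD8 genes of the rule. It had 0 of 22 past 2-fold (median 0.13, 11 intervals above 0 and 4 below), with Ptprc at 0.23 and Skap1 at -0.04. Costimulation genes had 0 of 9 past 2-fold (median 0.01, 3 intervals above 0 and 0 below). Among inhibitory receptors 0 of 10 were past 2-fold higher and 1 lower, Havcr2, which encodes TIM-3 (14.99 and 2.83 CPM, -2.41, in 19 and 6 members), and the median was -0.07. Of their intervals 3 lay above 0 and 1 below. The levels of Tox, a transcription factor of exhausted cells, were 372 and 364 CPM (-0.03).

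The homing list had 1 of 13 past 2-fold higher, Gpr183, the oxysterol receptor that positions lymphocytes (108 and 223 CPM, 1.04), and 1 lower, S1pr5, with a median of -0.01. The integrin chain Itga4 stood at 606 and 381 CPM (-0.67). The survival and cytokine list had 0 of 18 past 2-fold (median 0.22), with Bcl2, which protects from apoptosis, at 597 and 840 CPM (0.49). The immediate-early and heat shock list, which reacts to tissue dissociation, had 0 of 15 past 2-fold higher and 1 lower (Fosb, -1.02), with a median of -0.06. In the cell cycle list Tk1 (1.32) and Cenpf (1.10) of 15 genes were past 2-fold higher and 0 lower (median 0.21). Cenpf was found in 11 and 7 members, and without members of over 5000 detected genes its ratio was -0.58. Cells in cycle were few. Only 6 TNF- (1.97%) and 8 TNF+ members (3.76%) held at least 3 of Mki67, Top2a, Cdk1 and Birc5, a difference of 1.78 points (-1.14 to 5.42).

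Lists of other cell types were measured in the same members. The myeloid list had 6 of 9 genes past 2-fold higher and 1 lower (median 1.79), and a median member held 2 of its UMIs in the TNF- and 12 in the TNF+ lung, with Adgre1 in 1 and 18 members. The complement list had 4 of 8 higher, among them C3 (4.24 and 42.1 CPM) and C1qa (1.70 and 31.8 CPM), and 1 lower (median 1.71). A C3 UMI was found in 10 TNF- and 53 TNF+ members. Of the 119 TNF+ UMIs of C3, 1 member held 41 and the top 5 held 57.1%, so its ratio rested in large part on few cells. C1qa averaged 0.020 and 0.423 UMIs per member and 0.191 and 2.02 per B cell, the same direction. The B cell list had 1 of 6 higher and 0 lower (median 0.17), that gene being Igkc at 65.9 and 667 CPM. The epithelial list had 4 of 8 higher and 1 lower (median 0.66), the platelet and erythroid list 0 of 5 higher and 3 lower (median -1.02), the NK and innate lymphoid list 0 of 4 (median 0.01) and the CD4 list 0 of 4 (median 0.37). The gamma delta and NKT list had 2 of 4 higher and 0 lower (median 1.04), where Cd163l1 had 9 UMIs in 5 TNF- members and 63 UMIs in 6 TNF+ members. The part of free RNA in the T cell genes was not tested gene by gene, except as the B cell shares and the subtraction given above.

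**Figure D4:**
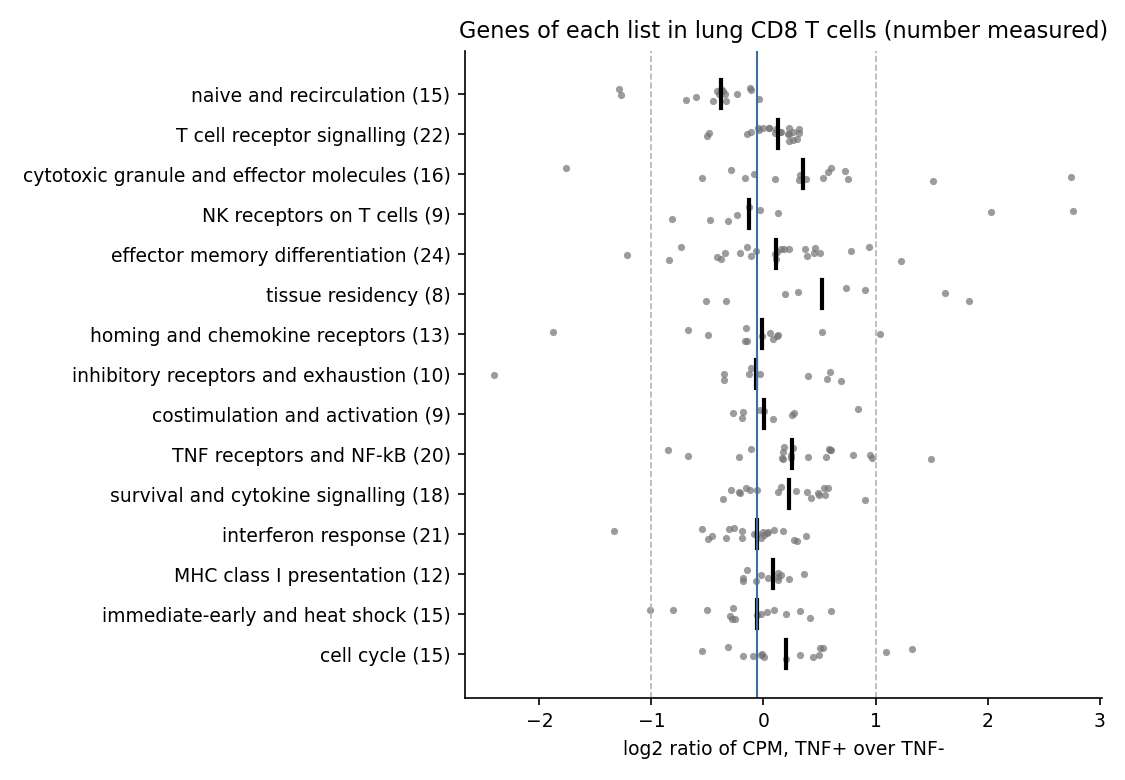
Log2 ratio of CPM in TNF+ over TNF- members (x axis) for each measured gene (grey points) of the T cell lists, with the list median (black bar), the median of all 9085 genes (blue line) and 2-fold limits (dashed lines). The naive list had a median of -0.38, the cytotoxic list 0.35 and the residency list 0.52.

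Because the Ccl5 ranges were mixed differently in the libraries, the Ccl5-high cells were compared alone, 97 in the TNF- and 121 in the TNF+ lung. The genes in the account of this range were picked after their values were seen. Median depth was 10034 and 12097 UMIs, so each share is also given after thinning each cell to 2000 UMIs. Genes of circulating effector cells were found in fewer TNF+ cells. Gzma was found in 53.6% of TNF- and 14.0% of TNF+ cells (50.5% and 10.7% thinned), and its level was 2552 and 414 CPM (log2 ratio -2.62, -2.74 to -2.50). Klrg1, an inhibitory receptor of terminal effector cells, was found in 45.4% and 18.2% (26.8% and 5.79% thinned). Cx3cr1, the fractalkine receptor of vascular effector cells, was found in 53.6% and 26.4% (29.9% and 11.6% thinned). All these shares lay lower at equal depth as well.

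The transcription factor Zeb2, which drives terminal effector differentiation, was found in 73.2% and 48.8% of Ccl5-high cells (59.8% and 22.3% thinned), with 948 and 224 CPM (-2.08, -2.26 to -1.91). S1pr5 was found in 38.1% and 10.7% (14.4% and 4.13% thinned), with 87.0 and 12.5 CPM. Over all members the ratios of both depended on the Csf1r condition, as given above. Gzmb was found in 52.6% and 22.3% (26.8% and 12.4% thinned) and Ifng in 48.5% and 34.7% (17.5% and 11.6% thinned). Klf2, which maintains expression of exit receptors, was found in 92.8% and 70.2% (78.4% and 49.6% thinned), although B cells had a like difference.

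Other genes were found in more of the TNF+ Ccl5-high cells. Cxcr3 was found in 48.5% of TNF- and 71.1% of TNF+ cells (13.4% and 33.9% thinned), Cxcr6 in 49.5% and 67.8% (18.6% and 34.7%), and Cd69 in 55.7% and 77.7% (21.6% and 42.1%). Itga1, whose integrin binds collagen, was found in 34.0% and 47.1% (14.4% and 26.4%). These receptors belong to tissue entry and residency. Xcl1 was found in 9.28% and 47.9% (4.12% and 18.2%), Rgs1 in 25.8% and 52.1% (7.22% and 14.9%), and Tnf in 21.6% and 52.1% (10.3% and 20.7%).

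Of other genes picked in this range, Ltb was found in 75.3% and 96.7% (38.1% and 64.5% thinned), Gpr183 in 37.1% and 66.9% (10.3% and 31.4%) and Bcl2 in 57.7% and 77.7% (35.1% and 58.7%). The plot of shares by Ccl5 range sets these genes side by side.

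Within the Ccl5-low range, 202 TNF- and 89 TNF+ cells, some genes of the naive state were close and others were lower in TNF+ cells. The median of the naive list in this range was -0.12. Lef1 stood at 1680 and 1605 CPM (log2 ratio -0.07, -0.15 to 0.02), Ccr7 at 272 and 282 CPM (0.05, -0.15 to 0.25) and S1pr1, the receptor for exit from tissue, at 229 and 226 CPM (-0.02, -0.24 to 0.20). Igfbp4 was lower, at 179 and 111 CPM, as were Tcf7, at 586 and 490 CPM, and Foxp1, at 2259 and 1925 CPM. Median depths were 10744 and 11984 UMIs. Of genes picked after their values were seen, Cxcr3 was found in 7.43% and 20.2% (0.990% and 8.99% thinned), Cd44, an adhesion molecule of activated cells, in 14.4% and 34.8% (2.97% and 13.5% thinned), and Tnf in 19.3% and 41.6% (7.43% and 16.9% thinned). In B cells Cd44 and Tnf had the same direction, with thinned shares for Cd44 of 12.3% and 19.6%. Tbx21, the transcription factor of effector T cells, stood at 2.16 and 29.04 CPM (3.75, 2.38 to 5.46).

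T cell receptor V beta genes were counted sparsely by these 3 prime libraries. Members held 79 Trbv UMIs in the TNF- and 71 in the TNF+ lung, over 23 of 35 listed Trbv genes. The leading gene, Trbv12-2, had 16 UMIs (20.3%, 12.04 to 30.8) and 11 UMIs (15.5%, 7.996 to 26.0), a difference of -4.76 points with an interval of -16.9 to 7.80. Of the 23 genes, Trbv2 alone had an interval without 0, with 3 UMIs (3.797%) and 10 UMIs (14.1%), a difference of 10.3 points (1.06 to 20.5). By leading Trbv gene it was assigned to 3 and 6 members, a difference of 8.64 points (-2.68 to 22.1).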

How the data were processed

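The authors deposited raw UMI count matrices, 1 per library. The submitters' processing notes name Cell Ranger 7.0.1 and mm10. Per the study methods its count function was run with default parameters, which in that version count intronic reads. Only the lung matrices entered the comparisons. Members and gene lists were chosen with earlier results of these data known.

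UMIs were summed over members per library and scaled to CPM, and log2 ratios of TNF+ over TNF- were given conditional binomial 95% intervals for genes with at least 50 UMIs. A group at 0 UMIs was set to a floor of 3 UMIs. Shares were given exact (Clopper-Pearson) intervals and differences of shares Newcombe intervals. Members held 2525 to 83151 UMIs. No doublet caller was run, and members with other-lineage UMIs were removed as an alternative. For thinning, UMIs were drawn without replacement to 2000 per cell, and shallower cells were left out. Free RNA was subtracted as the whole-library profile (6.76% of TNF- and 13.1% of TNF+ member UMIs). These parts were set from 10 free-RNA genes summed over members. The 10 members with most UMIs of these genes held 74.45% (TNF-) and 68.66% (TNF+) of them. The parts thus rested largely on few cells, and values after subtraction can be corrected too far.

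Named genes had at least 100 UMIs, an interval without 0 and a level in members of at least 0.5 times that of all kept barcodes in the library where they were higher, and were not receptor V, immunoglobulin, mitochondrial, ribosomal, Gm or Rik genes. The 15 highest and 15 lowest were named, with list genes past 2-fold, up to 4 list genes with most UMIs and the genes that set members apart from CD4 T cells and NK cells. Genes singled out beyond this rule were picked after their values were seen. Coordinates of genes are those of GENCODE vM21 (GRCm38). The calculation was tested on simulated data and run with Python 3.11.15, numpy 2.4.6, scipy 1.17.1 and pandas 2.3.3. Some genes are not reported here.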

Additional observations from a re-analysis of the deposited data

Results flagged for a closer look

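Some genes had ratios of opposite sign in 2 groups of cells under the same contrast of TNF+ over TNF-, both past 2-fold. None of these differences was tested between mice, because each genotype was 1 library. Gzma had a log2 ratio of -1.77 in CD8 T cells and 2.19 in CD4 T cells, the latter from 14 and 85 UMIs. The TNF+ CD4 level of 22.4 CPM was near that of TNF+ B cells, at 17.2 CPM. Cenpf, a kinetochore gene, had 1.10 in CD8 T cells, where 1 TNF+ member held 50.9% of its UMIs, and -3.30 in CD4 T cells.

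Between the Ccl5 ranges, genes of effector function had opposite signs. Lgals1 had a log2 ratio of 1.72 in Ccl5-low and -1.14 in Ccl5-high members, Lgals3 had 1.07 and -1.04, and Il18rap, a chain of the interleukin 18 receptor, had 2.39 and -1.29. The low range rested on few UMIs for Il18rap (8 in TNF- and 20 in TNF+ members). Proliferation genes did the same, with Pclaf at 2.35 and -1.01 and Rrm2 at 2.13 and -1.67, from 7 and 17 and from 11 and 23 UMIs in the low range. Over all members, the top 5 held 91.19% of the TNF- and 95.24% of the TNF+ UMIs of Pclaf. For Rrm2 the top 5 held 83.5% and 84.85%, so the ratios of both genes rested on few cells. Clu had -2.32 in the low and 1.75 in the high range, where 1 TNF+ member held 72 of its 80 UMIs over all members.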

How the results depend on the processing

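No paired analysis was possible because each group is 1 library. Recomputed under the alternatives, 39 shares and counts stayed close and 14 moved, 203 list medians stayed, 18 moved and 4 reversed, and 450 gene ratios stayed, 80 moved and 8 reversed. The difference in the CD8 share of kept barcodes was -1.25 points with the Csf1r condition lifted and -0.812 with the rule applied after thinning, and that in the Ccl5-high share 10.1 points with members thinned. Genes past 2-fold higher (120) numbered 273 with the Csf1r condition lifted, 183 with equal weight per cell, 581 after thinning, 272 at a minimum of 20 UMIs and 70 at 100. Genes past 2-fold lower (483) numbered 266 at most 5000 genes per cell, 225 without other-lineage members, 262 without the 10 most stromal members, 816 after thinning, 1074 at 20 UMIs and 221 at 100. After subtraction of free RNA they numbered 724, of which 441 were among the 483, and this count was still taken as close. Within the Ccl5-high range the medians were 0.27 (naive, reversed), -0.33 (cytotoxic, reversed), 0.84 (residency) and -0.015 (T cell receptor signalling, reversed). Within the Ccl5-low range they were -0.12 for the naive and -0.12 for the residency list (reversed). The residency median (0.52) was 0.81 at most 5000 genes, 0.83 without the stromal members, 0.92 with equal weight, 0.79 after thinning and 0.84 after subtraction of free RNA. Reversed genes were Cenpf (-0.58 at most 5000 genes, -0.55 without other-lineage members, -0.068 without the stromal members, -1.0005 in Ccl5-low), Clu (-0.14 and, in Ccl5-low, -2.32), Igfbp4 (0.27 in Ccl5-high) and Rap1gap2 (0.31 in Ccl5-low). The causes were not tested. Lifting the Csf1r condition and leaving out stromal members were chosen after seeing the data. Depth limits genes near 50 UMIs and the Trbv genes.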
